A study of Mus musculus with 139 samples.

Results

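The data described here are the lungs of male mice 1 month after 40 µg of multi-walled carbon nanotubes (MWCNT) and the lungs of male mice 1 month after the vehicle alone. They were chosen by source name, which gives agent, dose and month, and make up 16 of the 139 arrays of the series, 8 in each group. The strain is written C57BL/J6 in the labels, and the mice were 7 weeks old when they were received. Under isoflurane, each mouse breathed in 50 µL of fluid placed at the back of the tongue, once. The vehicle, called DM for dispersion medium, is a phosphate-buffered saline with glucose, mouse albumin and a phospholipid, and the nanotubes were suspended in it, so both groups received it. Total RNA of whole lung was hybridised to Affymetrix arrays. Replicates are separate, individually housed animals, numbered here by order of deposition. Other groups of the series, used below only to place these lungs, are male mice of the same source given 1, 10 or 80 µg MWCNT, 40 µg at 6 or 12 months, DM at 6 or 12 months, or 120 µg of crocidolite asbestos.

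Carbon nanotubes are cylinders of rolled graphene sheets, and long or tangled ones that reach the alveoli are taken up by macrophages or stay in the tissue, since neither enzymes nor the mucus escalator clear them quickly. A lung that holds such particles recruits macrophages through chemokines, and the resident and recruited cells secrete proteases, complement and lipid-handling proteins. In mice, type 2 inflammation is known for a further pattern: airway epithelium turns to mucus secretion, marked by Clca1 and Muc5ac, and macrophages and epithelium make chitinase-like proteins and the resistin-like protein Retnla.

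All 16 lungs had high levels of the genes that define lung tissue, with the surfactant genes Sftpc at 12.42 to 12.74 and Sftpb at 11.75 to 12.11, the club cell gene Scgb1a1 at 12.44 to 12.76 and the alveolar type 1 gene Ager at 11.08 to 11.61. Levels are log2 values, so a step of 1 is a doubling of signal, and levels of different genes cannot be set against each other. The titles of 4 DM arrays (replicates 3 to 6) and of none of the 40 µg arrays hold the word replacement, whose meaning is not given. In 3 DM lungs Acta1, the actin of skeletal muscle, was high (10.40, 9.31 and 7.11 in replicates 2, 8 and 1, against 3.30 to 5.02 in all other lungs of both groups). DM replicate 2 also had Krt4, a keratin of squamous epithelium, at 12.11. In 40 µg replicates 4 and 8 Dntt, an enzyme of developing thymocytes, was at 3.97 and 2.72, against 1.61 to 2.46 in all other lungs. Both are below called high in Dntt, though replicate 8 lay close to the highest DM lung. DM replicate 3 had the lowest median correlation with the rest of its group, 0.972, within a range of 0.972 to 0.987 over the 16 lungs.

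At 1 month the lungs given 40 µg MWCNT had 123 genes higher than DM lungs and 4 lower, out of 22180 genes tested with limma (adjusted p under 0.05, two-sided). That is 0.555% of genes in the higher direction and 0.018% in the lower. The response was led by the mucus-secretion gene Clca1, the chitinase-like Chil4, the macrophage elastase Mmp12 and the resistin-like Retnla. The log2 differences of the 123 genes ran from 0.31 to 5.85 with a median of 0.88, 49 of them above 1 and 14 above 2, while the median over all genes was -0.00 and 49.6% of genes had a positive difference. In 64 of the 123 every 40 µg mouse lay above every DM mouse, where 78 of all genes (0.352%) did so. None of the 4 lower genes separated completely, and over all genes 5 (0.0225%) had every 40 µg mouse below every DM mouse. The fit on arrays without the word replacement, 8 mice against 4, called 47 genes, 43 higher and 4 lower, of which 42 were among the 127. The DM mice left in it are replicates 1, 2, 7 and 8, and replicates 1, 2 and 8 are those high in Acta1. Leaving out the DM mice high in Acta1, used below, thus removes only mice without the word. Within DM the word and high Acta1 can hardly be told apart, and the 2 exclusions are not independent checks. With fewer DM mice, a call lost in arrays without the word does not by itself show that the difference is gone. The differences themselves were smaller there than over all mice for some genes, such as Scgb3a1 (0.35) and Reg3g (0.99). For others, such as Igf1 (0.82), they were not. With the word as a covariate 124 were called, and no value exists for arrays with the word, since no 40 µg array has it.

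**Figure D1:**
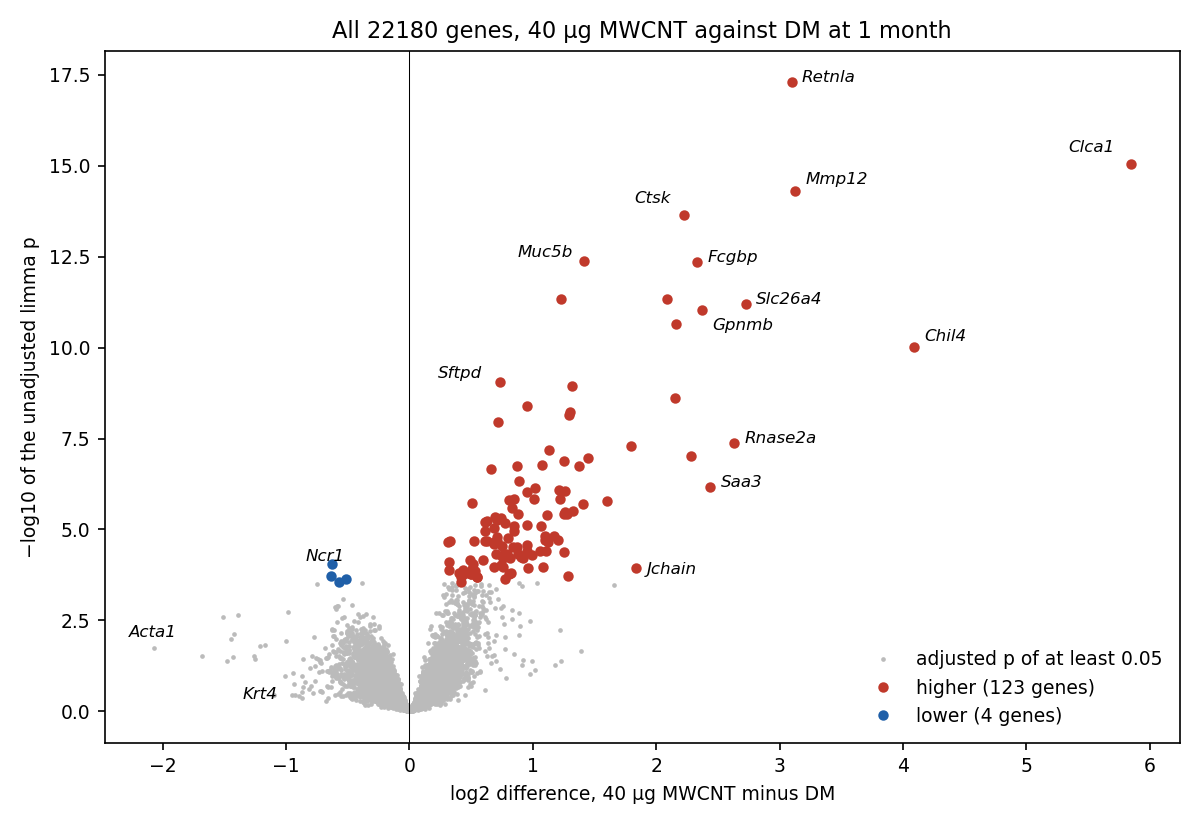
Each point is 1 of 22180 genes, with the log2 difference (40 µg MWCNT minus DM, 8 mice each) on the horizontal axis and the −log10 of the unadjusted limma p on the vertical axis; red points are the 123 higher genes, blue points the 4 lower genes, grey points the rest. Clca1 stands farthest to the right at 5.85, Retnla highest, and the skeletal muscle gene Acta1 farthest to the left at -2.07 without passing the test.

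Of the genes of airway mucus, 8 of 14 measured rose, all 14 differences were positive, and the median was 1.29. Clca1, a protein secreted by mucous cells, ran from 3.55 to 8.10 (median 4.59) in DM mice and from 10.16 to 11.55 (median 10.72) in 40 µg mice. No mouse overlapped, although DM replicate 3, at 8.10, stood well above the other DM mice. The difference was 5.85 ± 0.63 (SE; adjusted p = 1.01e-11), a 57.5-fold change. The gel-forming mucin Muc5ac ran from 3.54 to 4.29 (median 3.87) with DM and from 5.25 to 6.73 (median 5.83) with 40 µg, a difference of 2.09 ± 0.27 (adjusted p = 1.26e-08). The other gel-forming mucin of the airway, Muc5b, ran from 6.96 to 7.84 (median 7.51) and from 8.70 to 9.20 (median 8.81), which gave 1.41 ± 0.17 (adjusted p = 1.64e-09). Both mucins separated the groups in all 16 mice. Slc26a4, the anion exchanger pendrin, went from a median of 4.88 to 7.66 (2.72 ± 0.36), and Fcgbp, a mucus protein that binds the Fc part of IgG, from 4.47 to 6.66 (2.33 ± 0.29). Agr2, which folds mucins in the endoplasmic reticulum, rose by 1.41 ± 0.28, the trefoil peptide Tff2 by 1.60 ± 0.32 and the secreted Bpifb1 by 1.17 ± 0.26. Muc4, a membrane-bound mucin outside the list, rose by 0.80 ± 0.16. The 6 list members that did not pass had small positive values, among them the mucous transcription factors Spdef (0.23) and Foxa3 (0.06), the sugar transferase Gcnt3 (0.27) and the intelectin Itln1 (0.29). In arrays without the word replacement 5 of the 14 rose, and Agr2, Tff2 and Bpifb1 did not pass (1.20, 1.06 and 0.64, adjusted p = 0.119, 0.325 and 0.68). Bpifb1 also did not pass in a fit on the compared groups alone (adjusted p = 0.0514).

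**Figure D2:**
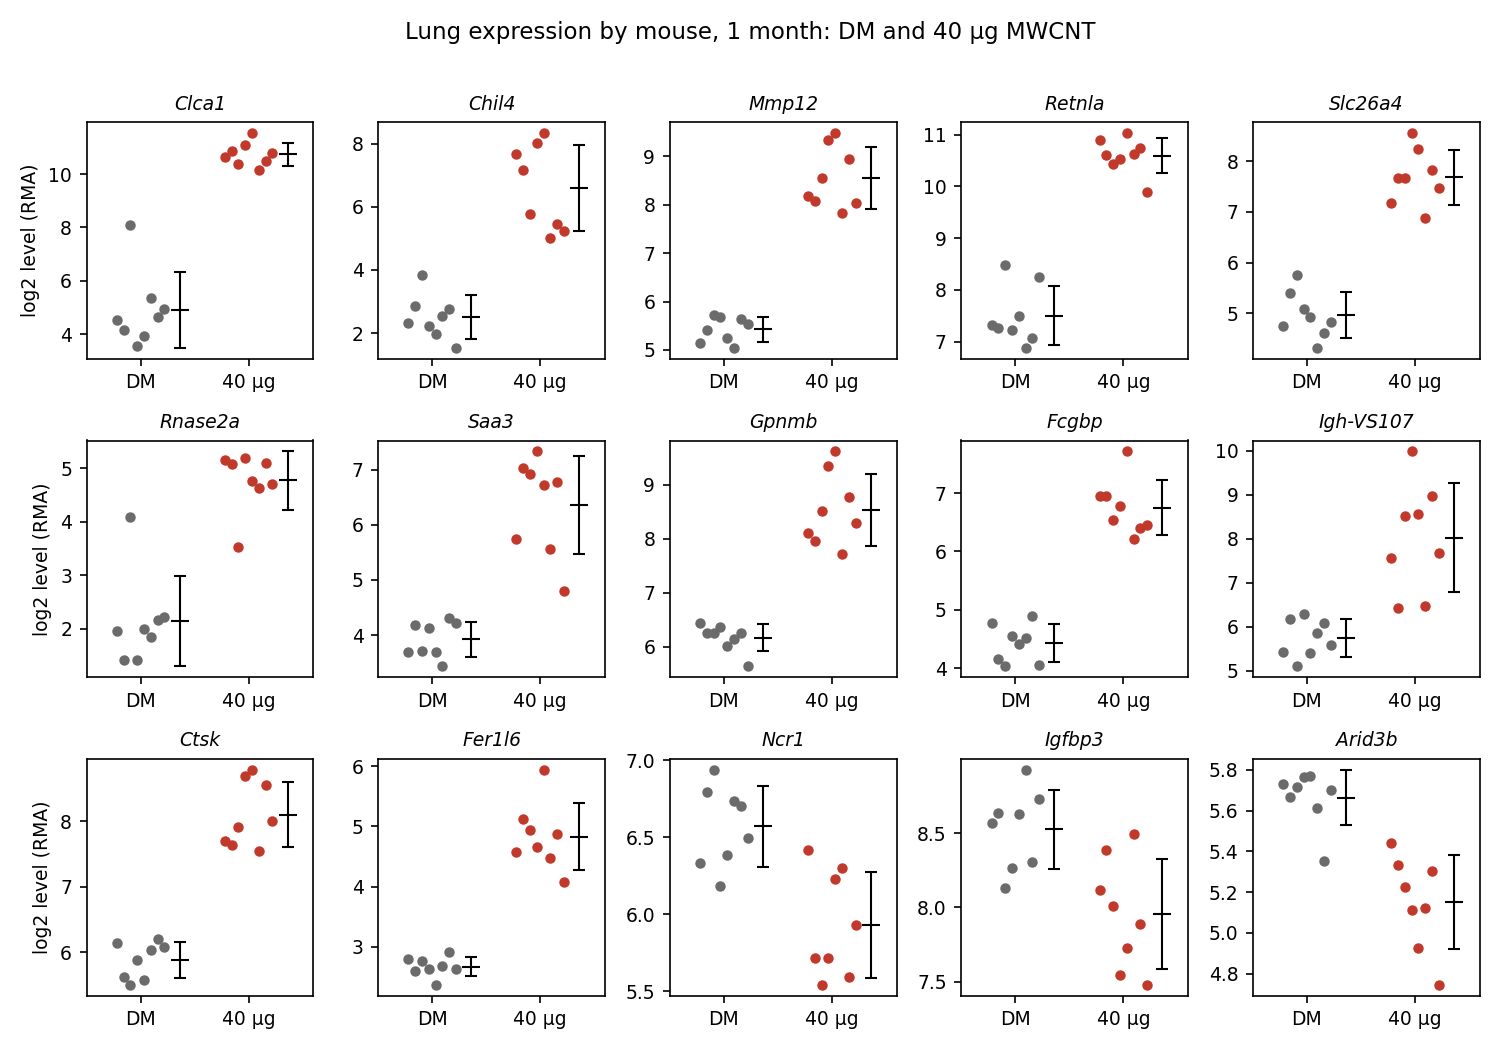
Log2 level (vertical axis) of the 12 genes with the largest rise and of 3 of the 4 lower genes in each DM mouse (grey) and each 40 µg mouse (red) at 1 month; the black mark beside each group is the mean with SD, and each panel has its own axis. The groups do not overlap in 11 of the 12 risen genes, the exception being Rnase2a, and they overlap in Ncr1, Igfbp3 and Arid3b.

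Chil4, a secreted chitinase-like protein without enzyme activity, ran from 1.53 to 3.85 (median 2.42) in DM mice and from 5.02 to 8.35 (median 6.48) in 40 µg mice. All 40 µg mice were above all DM mice, and among them 4 lay at 7.18 or above and 4 at 5.77 or below. The difference was 4.09 ± 0.58 (adjusted p = 1.76e-07), 17.0-fold. Its neighbour Chil3, known as Ym1 and abundant in alveolar macrophages, ran from 9.67 to 10.40 (median 10.09) and from 9.88 to 11.10 (median 10.93), with 6 of 8 mice above every DM mouse, and did not pass (0.68 ± 0.27, adjusted p = 0.496). Chia1, the acidic mammalian chitinase, which does cut chitin, rose by 1.13 ± 0.20 and the chitinase-like Chil1 by 0.72 ± 0.12, each with 8 of 8 mice above every DM mouse. Chit1, the macrophage chitinase, was at -0.10. In this list 3 of 5 genes rose. Features of near-identical genes such as Chil3 and Chil4 can share probe sequence, so their values are uncertain to that extent, which was not tested.

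Retnla, a cysteine-rich protein of alternatively activated macrophages and airway epithelium, ran from 6.88 to 8.48 (median 7.30) in DM mice and from 9.90 to 11.04 (median 10.61) in 40 µg mice, with no overlap. It differed by 3.10 ± 0.31 (adjusted p = 1.13e-13), the smallest p of all genes. It was the only one of 12 alternative activation genes to pass, and the median of that list was 0.22. Arg1, the arginase of these macrophages, ran from 3.80 to 4.94 (median 4.34) and from 4.15 to 6.33 (median 5.03), with 6 of 8 mice above every DM mouse (0.89 ± 0.33, adjusted p = 0.419). The mannose receptor Mrc1 (0.50), the lectin Mgl2 (0.56) and the checkpoint ligand Pdcd1lg2 (0.54) had positive values, and the scavenger receptor Cd163 (-0.16) and the lectin Clec10a (-0.18) negative ones. None of these 5 passed.

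The promoters of Chil3, Chil4 and Retnla are shown because Chil4 and Retnla were among the 4 genes with the largest rise and Chil3 is the close copy of Chil4 that did not pass. Each window runs from 250 bases before to 50 after the gene start, taken from RefSeq with the build GRCm38.p6, at chr3:106167515-106167814 (minus strand), chr3:106219430-106219729 (minus strand) and chr16:48842359-48842658 (plus strand). Capitals mark TTCNNNGAA or TTCNNNNGAA, the palindromic motifs bound by STAT factors, the longer spacing being the one STAT6 of the IL-4 and IL-13 pathway prefers.
Chil3: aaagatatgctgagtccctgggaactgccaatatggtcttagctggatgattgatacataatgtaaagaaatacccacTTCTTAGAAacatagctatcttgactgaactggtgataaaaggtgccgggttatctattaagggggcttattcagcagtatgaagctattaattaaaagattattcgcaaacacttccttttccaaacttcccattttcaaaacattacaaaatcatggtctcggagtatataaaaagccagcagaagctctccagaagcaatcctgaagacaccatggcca
Chil4: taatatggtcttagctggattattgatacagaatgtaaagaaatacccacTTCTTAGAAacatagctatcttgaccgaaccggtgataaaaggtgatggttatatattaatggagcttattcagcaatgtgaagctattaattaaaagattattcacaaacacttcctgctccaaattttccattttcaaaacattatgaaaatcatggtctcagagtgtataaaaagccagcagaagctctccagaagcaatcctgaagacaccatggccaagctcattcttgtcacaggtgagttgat
Retnla: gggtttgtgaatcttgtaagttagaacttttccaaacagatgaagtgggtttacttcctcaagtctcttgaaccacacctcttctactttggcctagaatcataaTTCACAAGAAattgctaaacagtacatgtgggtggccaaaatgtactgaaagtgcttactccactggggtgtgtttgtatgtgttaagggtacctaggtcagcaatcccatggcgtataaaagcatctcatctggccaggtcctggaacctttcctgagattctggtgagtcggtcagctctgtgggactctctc
Chil3 and Chil4 both hold TTCNNNGAA, its first base at positions -172 and -200 from their gene starts, and were identical at 92.6% of 271 aligned bases. Retnla holds TTCNNNNGAA, its first base at position -145. Entries existed for 93 of the 123 higher genes, with 103 promoters. Each motif reads the same on both strands, the motifs were counted separately, and a promoter can hold both. TTCNNNGAA was in 13.6% of the 103 promoters and in 7.89% of all 20611, and TTCNNNNGAA in 14.6% and 6.41%. A match describes the sequence and shows no binding.

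Macrophage genes of lipid handling and matrix digestion formed the next group. In the list of lipid-laden and osteoclast-like macrophages 9 of 21 rose, 20 differences were positive and the median was 0.53. Mmp12, the macrophage elastase, ran from 5.04 to 5.73 (median 5.47) in DM mice and from 7.82 to 9.49 (median 8.37) in 40 µg mice, a difference of 3.13 ± 0.35 (adjusted p = 3.57e-11), or 8.74-fold. Gpnmb, a lysosomal membrane glycoprotein of foam cells, ran from 5.64 to 6.44 (median 6.26) and from 7.72 to 9.62 (median 8.40) (2.37 ± 0.31, adjusted p = 2e-08). Ctsk, the collagen-cutting cathepsin of osteoclasts, ran from 5.50 to 6.20 (median 5.95) and from 7.54 to 8.79 (median 7.96) (2.22 ± 0.26, adjusted p = 1.28e-10). For all 3 the lowest 40 µg mouse was more than 1 log2 unit above the highest DM mouse. Trem2, a lipid-sensing receptor, rose by 1.22 ± 0.24, the scavenger receptor Msr1 by 0.96 ± 0.22, the proton pump subunit Atp6v0d2 by 0.96 ± 0.24, the integrin Itgax by 0.88 ± 0.18, the endosomal protein Cd68 by 0.87 ± 0.20 and the galectin Lgals3 by 0.55 ± 0.14. The calls of Atp6v0d2, Msr1 and Lgals3 were lost without any 1 of 8, 3 and 10 mice (adjusted p up to 0.0885, 0.068 and 0.132), and that of Cd68 without 40 µg replicate 4 (0.0518). Not past the test were Acp5, the tartrate-resistant phosphatase (0.59), the fusion protein Dcstamp (0.53), the lipase Lpl (0.48), the lipid droplet coat Plin2 (0.18) and the fatty acid transporter Cd36 (0.01). Without 40 µg replicates 4 and 8, the mice high in Dntt, 5 of the 21 rose, and in arrays without the word replacement 3, namely Mmp12, Gpnmb and Ctsk. Replicate 4 was among the highest of its group in those 3 genes. Leaving it out thus removes a mouse with a large rise as well as one high in Dntt, and leaves fewer mice. In whole lung, more macrophages and more RNA of a gene per macrophage cannot be told apart, and the same holds for every cell type below.

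Of the lysosomal genes 4 of 19 rose, by less than 1 log2 unit. All 19 differences were positive, with a median of 0.23 and a range of 0.05 to 0.68. The cathepsins Ctss (9.57 to 10.03 (median 9.66) with DM, 10.12 to 10.66 (median 10.46) with 40 µg) and Ctsd (9.85 to 10.30 (median 10.06) and 10.46 to 10.91 (median 10.77)) rose by 0.68 ± 0.15 and 0.66 ± 0.12, each with no overlap between groups. Ctsz rose by 0.43 ± 0.11 and the cholesterol carrier Npc2 by 0.32 ± 0.08, calls that were lost without any 1 of 9 mice and without DM replicate 3 (adjusted p up to 0.146 and 0.0767). Gnptab, which adds the mannose phosphate tag that sends enzymes to lysosomes and was not on the list, rose by 0.51 ± 0.10. Only Ctsd of the 19 passed in arrays without the word replacement, where Ctss was at 0.55 (adjusted p = 0.252).

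Of the markers of resident alveolar macrophages 0 of 9 passed. Their median was -0.00, with the scavenger receptor Marco at 0.64 ± 0.27, the lectin Siglecf at -0.39 and the keratin Krt79 at -0.58. Among 13 monocyte and interstitial macrophage genes Ms4a7, a tetraspan protein, rose by 1.29 ± 0.21 with 8 of 8 mice above every DM mouse, and C1qa by 0.76 ± 0.18. The chemokine receptors Cx3cr1 (0.19) and Ccr2 (0.13) and the growth factor receptor Csf1r (0.05) did not pass. C-type lectins and inhibitory receptors of myeloid cells outside the lists, picked after their values were seen, also rose: Clec4n by 1.26 ± 0.26, Clec5a by 1.10 ± 0.25, Cd200r4 by 1.11 ± 0.26 and Lilrb4a by 0.76 ± 0.18. Ch25h, which makes the oxysterol 25-hydroxycholesterol, ran from 4.74 to 5.61 (median 5.47) and from 6.14 to 7.22 (median 6.58) (1.26 ± 0.24). The calls of C1qa, Cd200r4 and Lilrb4a were lost without any 1 of 2, 1 and 3 mice (adjusted p up to 0.0781, 0.0782 and 0.0786). Among arrays without the word replacement C1qa, Clec4n, Clec5a, Cd200r4 and Lilrb4a did not pass (0.78, 1.13, 0.80, 0.73 and 0.61, adjusted p = 0.202, 0.107, 0.404, 0.531 and 0.473).

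**Figure D3:**
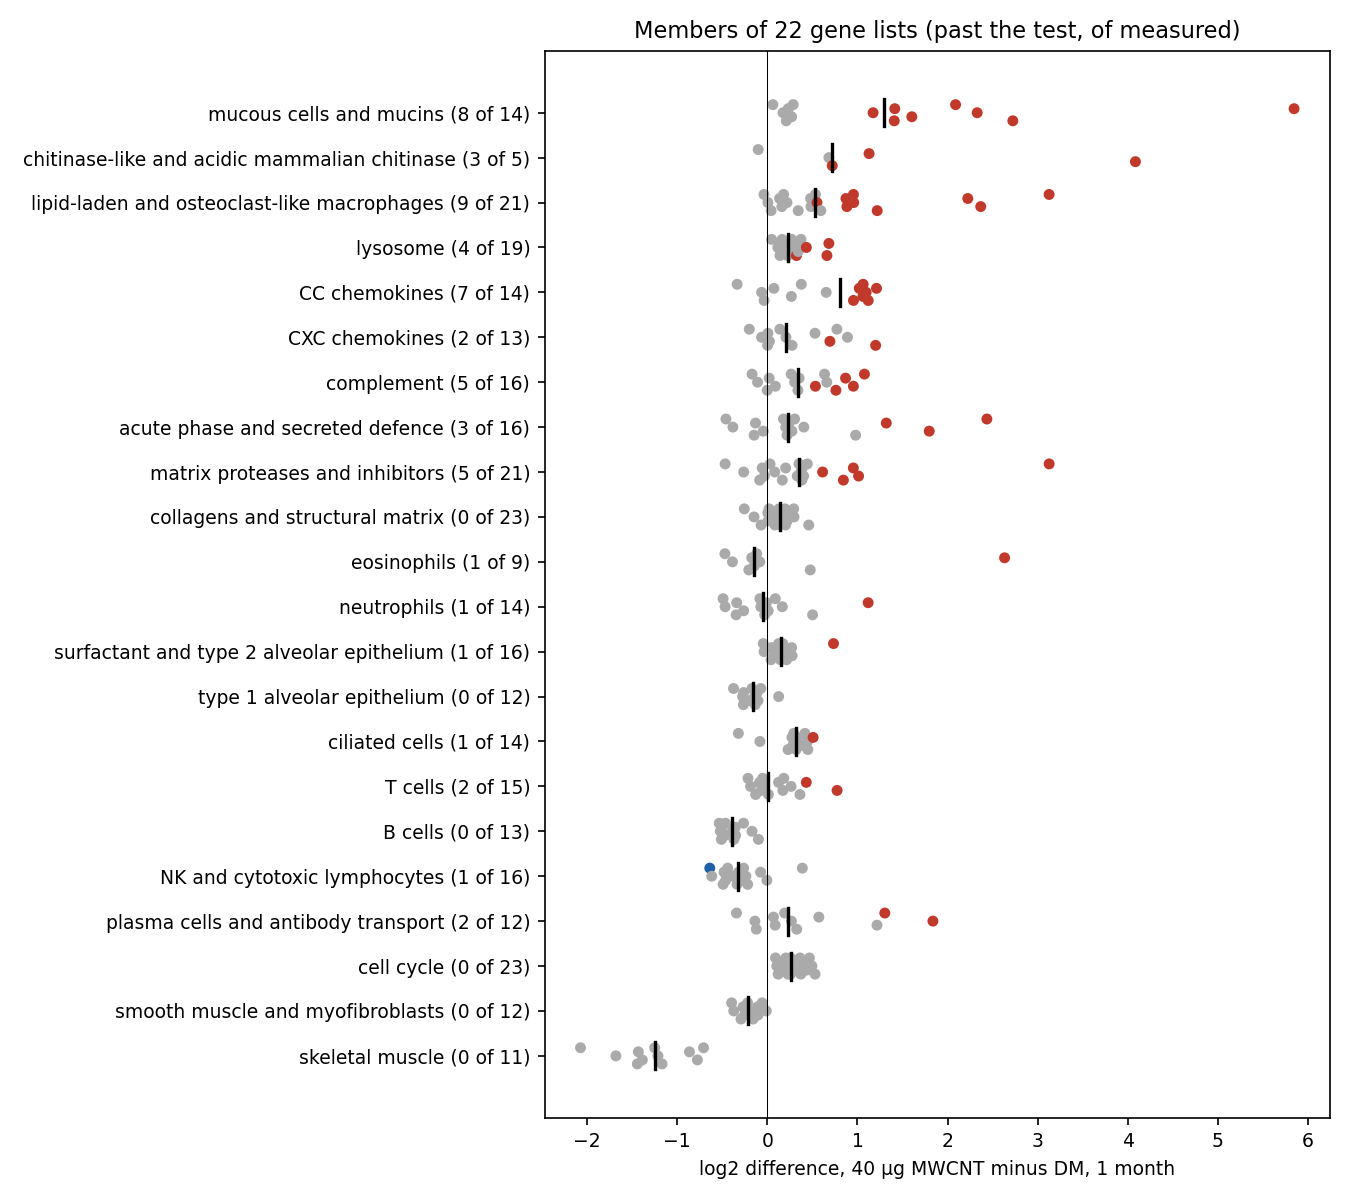
Each point is a gene, placed by its log2 difference (40 µg MWCNT minus DM, 8 mice each) in the row of its list, with the number past the test and the number measured in brackets; red points passed as higher, blue as lower, grey did not pass, and black bars are list medians. The mucous list has its median at 1.29, all 23 cell cycle genes lie right of 0 and all 13 B cell genes left of 0, and the skeletal muscle list has its median at -1.25.

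In the CC family of chemokines, which attract monocytes, eosinophils and T cells, 7 of 14 rose and the median was 0.80. Ccl3, a chemokine secreted by activated macrophages, ran from 4.70 to 5.52 (median 5.33) in DM mice and from 5.93 to 7.27 (median 6.29) in 40 µg mice, with no overlap (1.21 ± 0.23, adjusted p = 0.000537). The eosinophil attractant Ccl11, eotaxin, ran from 5.94 to 6.64 (median 6.13) and from 6.70 to 7.88 (median 7.40), also with no overlap (1.10 ± 0.24, adjusted p = 0.00522). Ccl17 and Ccl22, both ligands of Ccr4 on T helper cells, rose by 1.12 ± 0.25 and 1.02 ± 0.20, with 5 and 7 of 8 mice above every DM mouse. Ccl6 rose by 1.06 ± 0.23, Ccl9 by 0.96 ± 0.20 and Ccl8 by 1.06 ± 0.25, the last not without 40 µg replicate 4 (adjusted p = 0.0766). The monocyte attractant Ccl2 ran from 3.26 to 3.95 (median 3.54) and from 3.48 to 4.95 (median 4.47) and did not pass (0.65 ± 0.19, adjusted p = 0.118). It passed when 40 µg replicate 1 or 8 was left out. Ccl24 (0.07), Ccl4 (-0.04), Ccl20 (-0.06) and Ccl5 (-0.34) did not pass. Of 13 CXC chemokines, Cxcl1, which draws neutrophils, rose by 1.20 ± 0.27 and the mucosal Cxcl17 by 0.69 ± 0.14. Cxcl9 and Cxcl10, which are induced by interferon, were at 0.89 ± 0.28 and 0.53 ± 0.21 and did not pass, and Cxcl9 was at 7.29 in 40 µg replicate 2 against 4.82 to 5.85 in the other 40 µg mice. In arrays without the word replacement 2 CC chemokines, Ccl11 and Ccl22, and 0 CXC chemokines passed. Ccl17 and Ccl8 also did not pass without the DM mice high in Acta1 (adjusted p = 0.059 and 0.0823) or without the 40 µg mice high in Dntt (0.0697 and 0.0595).

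Few genes of type 2 cytokines and of granulocytes passed. Il33, an alarmin stored in alveolar and stromal nuclei, was the only one of 14 type 2 cytokine and receptor genes to rise, at 7.29 to 8.05 (median 7.60) with DM and 8.06 to 8.93 (median 8.27) with 40 µg (0.71 ± 0.15, adjusted p = 0.00238). It did not pass in arrays without the word replacement (0.56, adjusted p = 0.2) or without the 40 µg mice high in Dntt (0.58, adjusted p = 0.0708). Il13 ran from 2.54 to 3.65 (median 3.09) and from 2.94 to 3.73 (median 3.40) and did not pass (0.26 ± 0.16). Il5 was at 0.18, Il4 at -0.15, Tslp at -0.10 and Il25 at -0.19. In the eosinophil list only Rnase2a, an eosinophil-associated ribonuclease of a family of close copies, rose. It ran from 1.41 to 4.08 (median 1.98) in DM mice and from 3.54 to 5.19 (median 4.92) in 40 µg mice (2.63 ± 0.45, adjusted p = 4.75e-05). The groups overlapped through DM replicate 3, the highest DM mouse, and 40 µg replicate 3, the lowest of its group. The granule genes Prg2 (-0.12), Prg3 (-0.08) and Epx (-0.15) and the receptors Ccr3 (-0.21), Il5ra (-0.17) and Siglecf (-0.39) did not pass, and the list's median was -0.15. Of 11 mast cell genes 0 passed, with a median of -0.17. Of 14 neutrophil genes Cd177, a surface protein of neutrophils, rose by 1.12 ± 0.23, with the lowest 40 µg mouse at 5.89 and the highest DM mouse at 5.90. S100a8 (-0.26), S100a9 (0.09), Csf3r (-0.34) and Retnlg (-0.49) did not pass, and the median was -0.05. Cxcr1, a receptor for neutrophil attractants that was not on the list, rose by 1.33 ± 0.27. Neither Cd177 nor Cxcr1 passed in arrays without the word replacement (1.10 and 1.32, adjusted p = 0.0868 and 0.0749). Of 12 IL-1 and inflammasome genes 0 passed, with Casp4 at 0.48 ± 0.14, the receptor antagonist Il1rn at 0.42 ± 0.16 and Il1b at 0.19. Casp4 passed without DM replicate 8.

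Secreted defence proteins and complement made up a further group. Saa3, a local serum amyloid, ran from 3.43 to 4.31 (median 3.92) in DM mice and from 4.80 to 7.33 (median 6.74) in 40 µg mice, with no overlap (2.44 ± 0.47, adjusted p = 0.000489). Reg3g, a lectin that kills Gram-positive bacteria, ran from 4.76 to 7.68 (median 6.84) and from 7.81 to 8.76 (median 8.34) (1.80 ± 0.31), and Lcn2, which binds bacterial siderophores, from 8.50 to 9.10 (median 8.92) and from 9.85 to 10.59 (median 10.13) (1.32 ± 0.20). These were 3 of 16 in their list. Lactoferrin, Ltf, was at 0.98 ± 0.33 and did not pass, and the fibrinogen chains were at 0.20 (Fgg), -0.38 (Fga) and -0.46 (Fgb). In the complement list 5 of 16 rose, with a median of 0.35: the anaphylatoxin receptor C3ar1 (1.08 ± 0.19), factor B of the alternative pathway, Cfb (0.95 ± 0.19), C4b (0.87 ± 0.16), C1qa (0.76 ± 0.18) and the integrin chain Itgb2 (0.53 ± 0.14). Hc, which encodes complement C5 and was not on the list, rose by 0.33 ± 0.07, though not in fits on the compared groups alone, with centring or without the 40 µg mice high in Dntt (adjusted p = 0.068, 0.0961 and 0.0827). The partner chains C1qb and C1qc, at 0.63 and 0.66, and the receptor C5ar1, at -0.17, did not pass. The call of Itgb2 was lost without any 1 of 7 mice (adjusted p up to 0.14). In arrays without the word replacement 1 complement gene, C4b, passed and neither Hc nor Reg3g did, and without the 40 µg mice high in Dntt 3 complement genes passed.

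Genes of 3 vitamin K-dependent blood clotting proteins, picked after their values were seen, rose as well. F7, coagulation factor VII, ran from 6.26 to 6.87 (median 6.51) and from 6.76 to 7.65 (median 7.27) (0.70 ± 0.17, adjusted p = 0.0119). F10, factor X, ran from 5.26 to 5.96 (median 5.37) and from 5.67 to 6.32 (median 6.22) (0.69 ± 0.16), and Proz, protein Z, a cofactor in the inhibition of factor X, from 4.31 to 5.17 (median 4.76) and from 5.07 to 6.22 (median 5.52) (0.79 ± 0.19). In 7, 6 and 7 of 8 mice the level was above every DM mouse. In RefSeq these genes lie side by side on chromosome 8 in the order F7, F10, Proz. Without 40 µg replicate 4, F7 and Proz did not pass (adjusted p = 0.0565 and 0.0786), nor without both 40 µg mice high in Dntt (0.0968 and 0.186). Proz did not pass without the DM mice high in Acta1 (adjusted p = 0.144), and F7 and F10 did not pass in arrays without the word replacement (0.55 and 0.67, adjusted p = 0.358 and 0.169).

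Among 21 matrix proteases and inhibitors 5 rose, with a median of 0.35. Next to Mmp12 these were the inhibitor of metalloproteases Timp1, at 4.33 to 4.96 (median 4.59) with DM and 5.39 to 6.23 (median 5.53) with 40 µg (1.01 ± 0.20, adjusted p = 0.000854), the membrane protease Adam8 (0.95 ± 0.15), the metalloprotease Mmp19 (0.84 ± 0.18) and the serpin Serpina3n (0.61 ± 0.13). The gelatinases Mmp2 and Mmp9 were at 0.44 and -0.47 and did not pass. Of 23 collagen and structural matrix genes 0 passed. Their differences ran from -0.26 for Postn, periostin, to 0.46 for Tnc, tenascin C, 20 of 23 positive, with a median of 0.14. Col1a1 ran from 8.40 to 9.30 (median 8.65) in DM mice and from 8.62 to 9.17 (median 8.93) in 40 µg mice (0.16 ± 0.17, adjusted p = 0.995), and Col3a1 from 8.69 to 9.35 (median 8.82) and from 8.93 to 9.43 (median 9.19) (0.30 ± 0.15, adjusted p = 0.756). No 40 µg mouse was above every DM mouse in Col1a1, and 2 were in Col3a1. P4ha3, a subunit of the enzyme that hydroxylates collagen, outside the list, rose by 0.75 ± 0.18, a call lost when any 1 of 3 mice was left out (adjusted p up to 0.0715). Of 17 TGF-beta pathway genes 0 passed, with Tgfb1 at -0.01 ± 0.12 and the value largest in size at -0.32 for Bmp6. All 12 genes of smooth muscle and myofibroblasts had negative values (median -0.21) and 0 passed, with the actin Acta2 at -0.25 ± 0.20. Igf1, a growth factor made by lung macrophages and fibroblasts, rose by 0.80 ± 0.18. It did not pass in arrays without the word replacement, without the DM mice high in Acta1 or without the 40 µg mice high in Dntt (0.82, 0.77 and 0.71, adjusted p = 0.107, 0.0515 and 0.076). Mmp19 did not pass without the mice high in Dntt (0.119), nor Serpina3n without those high in Acta1 (0.0549).

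In the alveolar epithelium Sftpd, the collectin surfactant protein D, was the 1 of 16 type 2 cell genes to rise. It ran from 9.73 to 10.17 (median 9.93) in DM mice and from 10.42 to 10.96 (median 10.67) in 40 µg mice, with no overlap (0.73 ± 0.11, adjusted p = 1.5e-06). Sftpc (0.05), Sftpb (0.08) and Sftpa1 (0.17) did not pass. Of 12 type 1 cell genes 0 passed and 11 were negative, with a median of -0.16. Of 13 transitional and basal genes, Lgals3 passed, while Cldn4, Krt8 and Krt18, which mark cells between type 2 and type 1, were at 0.48, 0.32 and 0.29. In the airway 2 of 12 club cell genes rose, Retnla and the secretoglobin Scgb3a1. The secretoglobin Scgb3a1 rose by 1.00 ± 0.24, while Scgb1a1 and Scgb3a2, of the same family, were at -0.05 and 0.04. Its call was lost without DM replicate 3, 4 or 5 (adjusted p up to 0.0737), in a fit on the compared groups alone, with replacement as a covariate and in arrays without that word. In arrays without that word Scgb3a1 was at 0.35 (adjusted p = 0.858). Of 14 ciliated cell genes 12 had positive values, with a median of 0.32, and the dynein heavy chain Dnah5 passed (0.51 ± 0.13), a call lost when any 1 of 7 mice was left out (adjusted p up to 0.125). Dnah5 also did not pass with replacement as a covariate or in arrays without that word (adjusted p = 0.142 and 0.403). The same held on the compared groups or the 1-month groups alone (adjusted p = 0.0717 and 0.0765). Genes outside the lists, picked after their values were seen, rose too: A2ml1, a protease inhibitor, by 1.45 ± 0.26, the amino acid transporter Slc6a20a by 1.23 ± 0.16, Gp2, a receptor for bacterial pili, by 1.27 ± 0.26, and Fer1l6, a ferlin membrane protein, by 2.16 ± 0.29. Among arrays without the word replacement A2ml1 was at 0.93 and did not pass (adjusted p = 0.221). Pigr, which carries IgA and IgM across epithelium, ran from 6.48 to 7.85 (median 7.41) and from 8.15 to 9.08 (median 8.68) (1.30 ± 0.21, adjusted p = 7.86e-06). Of 18 endothelial genes 0 passed and 2 were positive, and of 10 mesothelial genes 0 passed, with mesothelin, Msln, at 0.53 ± 0.27.

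Few lymphocyte genes passed. Foxp3, the transcription factor of regulatory T cells, ran from 3.76 to 4.89 (median 4.34) in DM mice and from 4.82 to 5.35 (median 5.02) in 40 µg mice, with 6 of 8 mice above every DM mouse (0.77 ± 0.16, adjusted p = 0.00275). Icos, a costimulatory receptor, rose by 0.43 ± 0.11, a call lost without any 1 of 6 mice (adjusted p up to 0.17). Other settings lost it too, among them quantile normalization, centring, replacement as a covariate and arrays without that word (adjusted p = 0.123, 0.126, 0.0724 and 0.611). The T cell receptor subunits Cd3d, Cd3e and Cd3g were at 0.01, -0.09 and -0.05, and the coreceptors Cd4 and Cd8a at 0.18 and -0.22. The median of the 15 T cell genes was 0.01. Tnfrsf9, the costimulatory receptor 4-1BB of activated T cells, ran from 3.81 to 4.83 (median 4.31) and from 5.21 to 6.11 (median 5.50), with no overlap (1.25 ± 0.22), and Itgae, the integrin chain CD103 of mucosal T cells and dendritic cells, rose by 0.69 ± 0.16, the 1 of 14 dendritic cell and MHC class II genes to do so, though not in arrays without the word replacement (adjusted p = 0.267). None of 13 B cell genes passed, and all were negative with a median of -0.39, from -0.10 for Swap70 to -0.53 for the complement receptor Cr2. The mean level of the 13 B cell genes ran from 6.86 to 7.22 in DM mice and from 6.45 to 6.86 in 40 µg mice, so that only the edges of the ranges met. Among 16 genes of natural killer and cytotoxic cells 15 were negative, with a median of -0.33, and the natural killer receptor Ncr1 passed as lower.

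Antibody genes varied widely between mice. Igh-VS107, an immunoglobulin heavy chain segment, ran from 5.10 to 6.29 (median 5.72) in DM mice and from 6.41 to 9.98 (median 8.10) in 40 µg mice (2.28 ± 0.40, adjusted p = 9.23e-05). Jchain, the joining chain of secreted IgA and IgM, ran from 3.73 to 7.94 (median 5.45) and from 6.14 to 9.68 (median 7.44), with 3 of 8 mice above every DM mouse (1.84 ± 0.46, adjusted p = 0.0241). The spread of Jchain within DM, an SD of 1.37, was close to that within 40 µg, 1.25. Its call was lost without any 1 of 8 mice (adjusted p up to 0.164), in fits on the compared groups or the 1-month groups alone, in arrays without the word replacement and without the 40 µg mice high in Dntt. Jchain and Pigr were the 2 of 12 genes of plasma cells and antibody transport to pass. The light chain Iglv1 (1.22) and the heavy chain Ighm (0.57) did not pass. The plasma cell factors Xbp1 (0.09), Prdm1 (-0.14), Tnfrsf17 (0.07) and Mzb1 (0.19) were near 0.

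None of 23 cell cycle genes passed in the main fit. All 23 differences were positive, from 0.09 to 0.53 with a median of 0.26. Mki67, the proliferation antigen, ran from 5.94 to 6.76 (median 6.16) in DM mice and from 6.47 to 7.08 (median 6.82) in 40 µg mice (0.53 ± 0.14, adjusted p = 0.0543). Top2a, topoisomerase II alpha, ran from 5.15 to 5.46 (median 5.24) and from 5.60 to 6.05 (median 5.72), with 8 of 8 mice above every DM mouse (0.49 ± 0.14, adjusted p = 0.0593). The result for both depended on the setting. Mki67 passed in 9 of 29 other settings, 5 of which left out 1 mouse. Top2a passed in 6 of 29, none of which left out 1 mouse. The mean level of the 23 genes ran from 4.38 to 4.84 with DM and from 4.76 to 5.08 with 40 µg.

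Stress responses were narrow. Of 13 NRF2 and oxidative stress genes, Slc7a11, the cystine importer, rose by 1.08 ± 0.27 and Mt2, a metallothionein, by 0.78 ± 0.20, while Hmox1 (0.31), Gclc (0.32) and Nqo1 (-0.24) did not pass. Both calls were lost without any 1 of 4 and 10 mice (adjusted p up to 0.0888 and 0.155). With the mean of its features Slc7a11 was at 0.65 and did not pass (adjusted p = 0.0508). Without 40 µg replicates 4 and 8, and without the DM mice high in Acta1, 0 of the 13 passed. Atf3, a stress-induced transcription factor, rose by 0.71 ± 0.16, the 1 of 16 immediate early genes to do so, though not on the compared groups alone or in arrays without the word replacement (adjusted p = 0.0818 and 0.0974). Of 11 p53 targets (Cdkn1a at 0.39 ± 0.17), 16 interferon-stimulated genes and 14 clock genes 0 passed, with medians of 0.14, 0.12 and -0.04. Xenobiotic metabolism had 0 of 15 past the test and a median of -0.15, with the carboxylesterase Ces1g at -0.61 ± 0.27.

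The 4 lower genes changed less than most of the higher ones. Ncr1, the activating receptor NKp46 of natural killer cells, ran from 6.18 to 6.94 (median 6.60) in DM mice and from 5.54 to 6.42 (median 5.83) in 40 µg mice, with 5 of 8 mice below every DM mouse (-0.64 ± 0.17, adjusted p = 0.0346). Igfbp3, a binding protein of insulin-like growth factors, ran from 8.13 to 8.93 (median 8.60) and from 7.48 to 8.50 (median 7.95) (-0.57 ± 0.15, adjusted p = 0.0493). Arid3b, a DNA-binding protein, ran from 5.35 to 5.77 (median 5.71) and from 4.74 to 5.44 (median 5.17), with 7 of 8 mice below every DM mouse (-0.51 ± 0.14, adjusted p = 0.0408). With the mean of its features in place of the highest one, Arid3b was at -0.20 and did not pass (adjusted p = 0.782). The fourth is the predicted gene Gm15850 (-0.63 ± 0.15), named after its value was seen. All 4 calls were lost without any 1 of 9, 10, 12 and 4 of the 16 mice (adjusted p up to 0.127, 0.178, 0.157 and 0.0873, in that order). The differences moved less in those fits. They stayed within -0.71 to -0.58 for Ncr1, -0.65 to -0.50 for Igfbp3, -0.56 to -0.45 for Arid3b and -0.72 to -0.57 for Gm15850. None of the 4 passed in arrays without the word replacement, where the differences were -0.65, -0.61, -0.46 and -0.68 (adjusted p = 0.289, 0.191, 0.422 and 0.171).

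Among the list genes, the most negative differences were those of skeletal muscle and squamous epithelium genes, and none of these passed. All 11 skeletal muscle genes were negative, with a median of -1.25, and 0 passed. Acta1 was at -2.07 ± 0.86, and the mean level of the list ran from 3.39 to 7.43 in DM mice and from 3.30 to 3.65 in 40 µg mice. The highest means were those of DM replicates 8, 2 and 1 (7.43, 7.13 and 4.91), the mice high in Acta1. The squamous list had a median of -0.38 and a DM mouse at 7.58, replicate 2, where the 40 µg mice ran from 3.46 to 4.01. Without the DM mice high in Acta1 121 genes passed, 99 of them among the 127, and without the 40 µg mice high in Dntt 91, 85 of them among the 127. The 7 thyroid, oesophagus and thymus genes had a median of 0.02, and the 13 adipose genes one of -0.25. None of 13 cardiac muscle genes (median -0.28), 2 red blood cell genes (-0.12) and 9 organisers of lymphoid tissue (0.01) passed. The part of these tissues in the other results was not tested beyond these counts.

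Within the 40 µg group Mmp12 was set against 8 other genes over the mice. The level of Mmp12 correlated with that of Gpnmb over the 8 mice (Pearson r = 0.976, exact permutation p = 9.92e-05; Spearman rho = 0.929, exact permutation p = 0.00223). It also correlated with Ctsk (r = 0.949, exact permutation p = 0.00126; rho = 0.857, exact permutation p = 0.0107). After Benjamini-Hochberg adjustment over the 8 pairs computed the p-values for r were 0.000794 and 0.00506, and for rho 0.0179 and 0.0429. Without replicates 5 and 4, the mice farthest from the median in Mmp12, r was 0.924 and 0.861. Clca1 had an r of 0.671 with Mmp12 (adjusted exact permutation p = 0.125), which was -0.07 without those mice, so that it rested on them. For Retnla r was 0.426, for Saa3 0.654, for Jchain 0.710 and for Ncr1 -0.245, with adjusted exact permutation p-values of 0.350, 0.125, 0.125 and 0.537. For Chil4, whose values fell into a higher and a lower set of 4 mice, r was 0.576 (adjusted exact permutation p = 0.183). Without replicates 5 and 4 it was -0.08, so that it rested on them as well. The rho with Mmp12 was 0.786 for Chil4 (exact permutation p = 0.0279, adjusted 0.0745) and 0.571 for Clca1 (exact permutation p = 0.151, adjusted 0.228). Replicates 4 and 5 were the highest of the group in Mmp12, Gpnmb, Ctsk and Chil4.

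**Figure D4:**
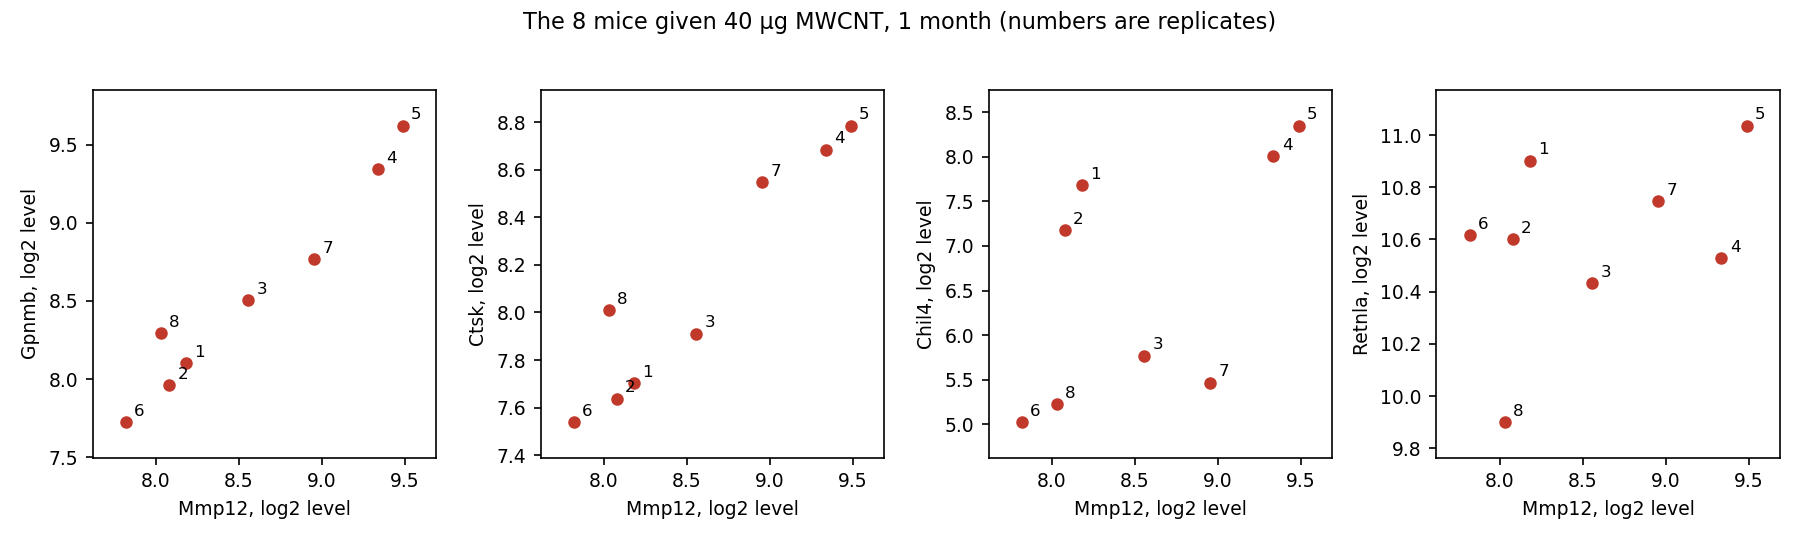
Each point is 1 of the 8 mice given 40 µg MWCNT, numbered by replicate, with its log2 level of Mmp12 on the horizontal axis and of Gpnmb, Ctsk, Chil4 or Retnla on the vertical axis. Gpnmb and Ctsk rise with Mmp12 (r of 0.976 and 0.949), Chil4 splits into mice at 7.18 or above and mice at 5.77 or below, and Retnla shows an r of 0.426.

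Set against the neighbouring doses at 1 month, the 40 µg lungs differed from the 10 µg lungs in 4 genes and from the 80 µg lungs in 0. The 4 genes (0.018% of those tested) were all higher with 40 µg: Mmp12 by 1.68 ± 0.35 (adjusted p = 0.0354), Gpnmb by 1.46 ± 0.31 (adjusted p = 0.0464), Ctsk by 1.25 ± 0.26 (adjusted p = 0.0354) and Slc6a20a by 0.85 ± 0.16 (adjusted p = 0.00962). At an unadjusted p under 0.05 there were 1056 of 22180 genes, no more than chance alone would put under that threshold. The count of 4 depended on the setting: it was 0 without 40 µg replicate 4, with quantile normalization or on the compared groups alone, and 13 with array weights. Clca1 differed from 10 µg by 1.34 ± 0.63, Retnla by 1.09 ± 0.31 and Chil4 by 0.81 ± 0.58, none past the test. Between 80 and 40 µg 0 genes (0%) passed in limma. Unadjusted p-values under 0.05 numbered 530, again no more than chance alone would give, and with array weights 2 genes passed. The differences, 80 minus 40 µg, were 0.52 ± 0.63 for Clca1, 1.11 ± 0.58 for Chil4, 0.74 ± 0.35 for Mmp12, 0.58 ± 0.31 for Retnla and 0.76 ± 0.31 for Gpnmb. None passed, which does not show that 40 and 80 µg act alike.

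**Figure D5:**
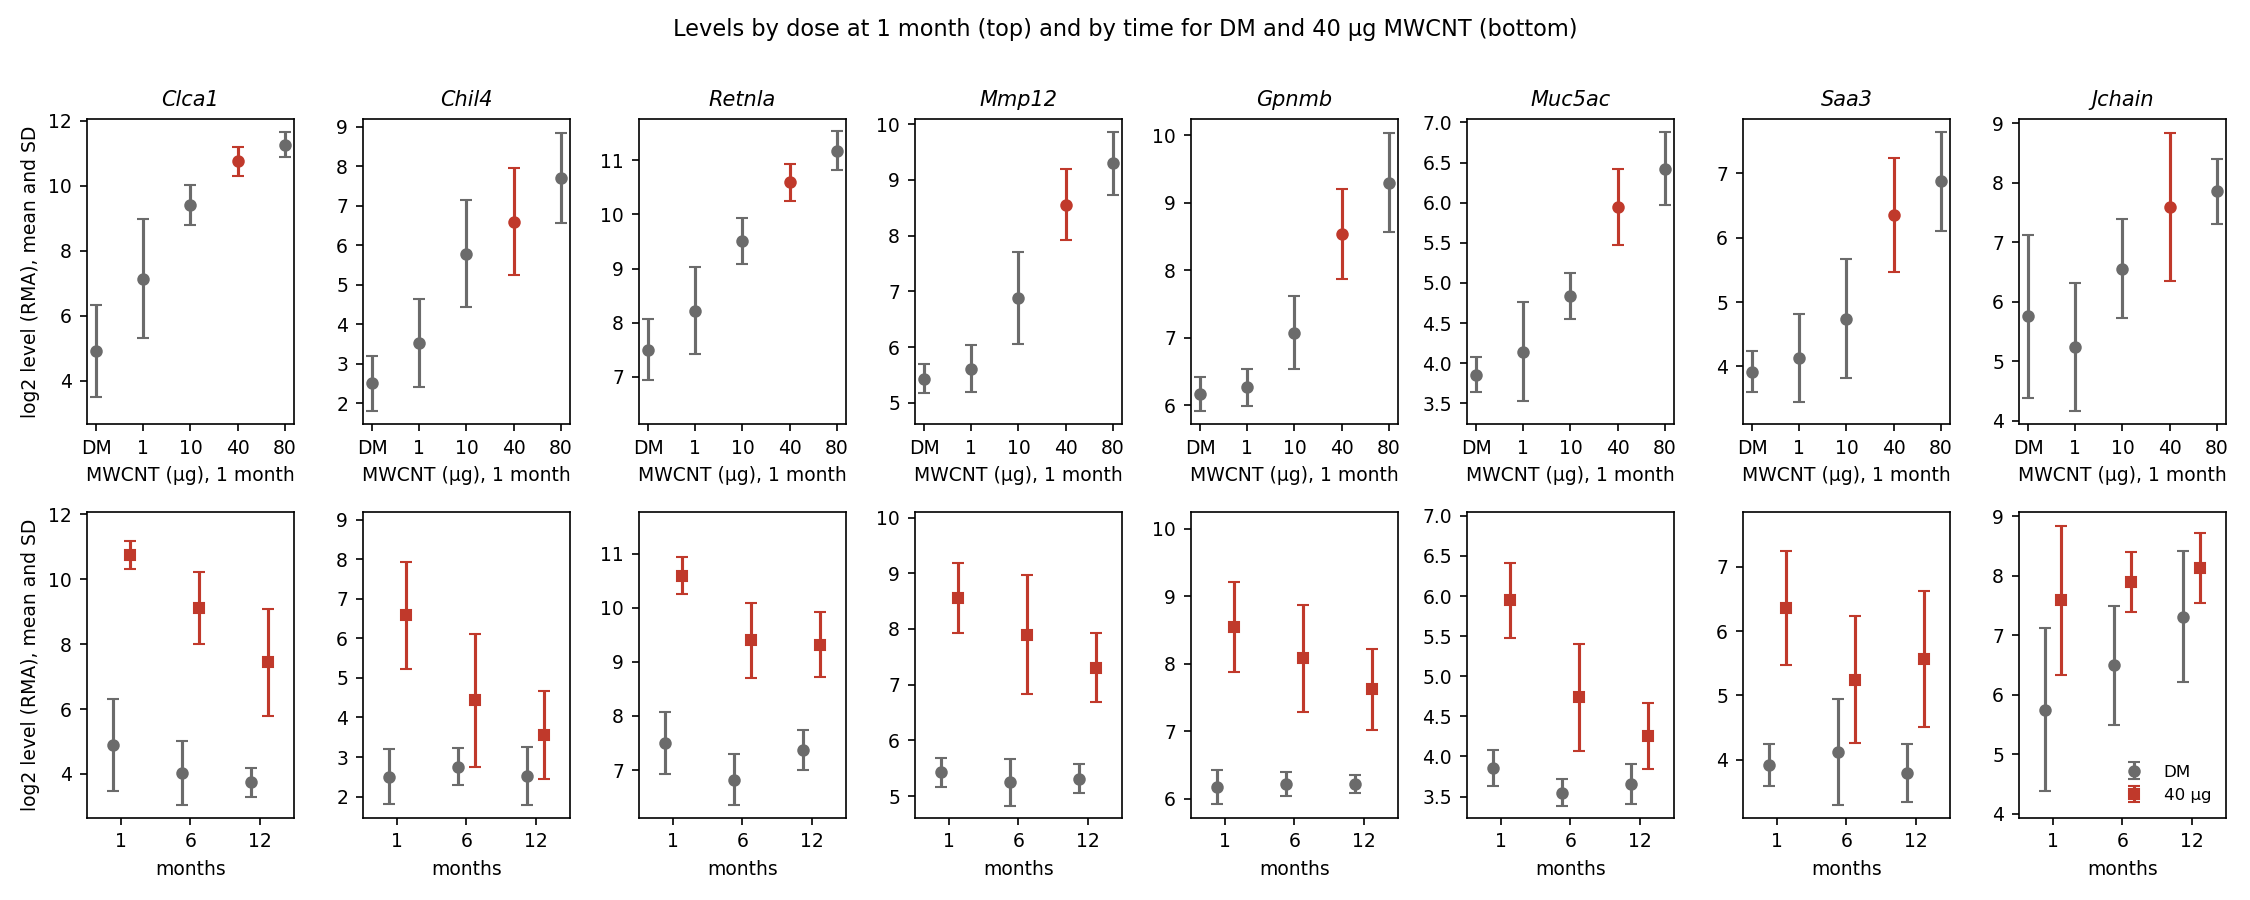
Group means with SD of log2 levels for 8 genes: in the top row by dose at 1 month (DM, 1, 10, 40 and 80 µg MWCNT, with 40 µg in red), in the bottom row for DM (grey circles) and 40 µg (red squares) at 1, 6 and 12 months, 8 mice a group. Clca1 stands at 9.40 with 10 µg, 10.75 with 40 µg and 11.26 with 80 µg, and its 40 µg mean is 10.75, 9.11 and 7.44 at 1, 6 and 12 months.

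The group levels give the same picture gene by gene. Clca1 had a mean of 4.90 ± 1.42 with DM, 7.14 ± 1.82 with 1 µg, 9.40 ± 0.62 with 10 µg, 10.75 ± 0.44 with 40 µg and 11.26 ± 0.38 with 80 µg (SD, 8 mice each). Mmp12 had 5.43 ± 0.26, 5.61 ± 0.42, 6.88 ± 0.83, 8.56 ± 0.63 and 9.29 ± 0.56 in the same order. The ranges of 40 and 80 µg overlapped in both genes. With 120 µg crocidolite, 5 mice, Clca1 was at 10.68 ± 0.43, Mmp12 at 9.64 ± 0.63 and Chil4 at 8.28 ± 0.43, where Chil4 with 40 µg was at 6.59 ± 1.36. Mass doses of the fibres differ, and no comparison is made. Muc5ac went from 4.84 ± 0.29 with 10 µg to 5.95 ± 0.47 with 40 µg, with ranges that overlapped at their edges (4.41 to 5.30 against 5.25 to 6.73).

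In other mice given the same dose, the difference from DM of the same time was measured at 6 and 12 months. At 6 months 47 genes passed (0.212%), 46 higher, and at 12 months 8 (0.0361%), 6 higher. All 123 genes higher at 1 month had a positive difference at 6 months, where 48.3% of all genes did, 34 of them past the test, with a median of 0.60. At 12 months 118 were positive, where 47.3% of all genes were, 5 past the test, with a median of 0.39. The 5 were Clca1 (3.70 ± 0.63), Mmp12 (1.99 ± 0.35), Retnla (1.94 ± 0.31), Gpnmb (1.41 ± 0.31, adjusted p = 0.0488) and AU040972 (0.79 ± 0.17). Of the 4 lower genes, 4 had a negative value at 6 months and 3 at 12 months. At 6 months Clca1 differed by 5.08 ± 0.63, Mmp12 by 2.65 ± 0.35, Retnla by 2.57 ± 0.31, Gpnmb by 1.86 ± 0.31 and Ctsk by 1.59 ± 0.26. Muc5ac was at 1.19 ± 0.27 (adjusted p = 0.0192) and Muc5b at 0.71 ± 0.17 (adjusted p = 0.0384). Chil4 was at 1.68 ± 0.58 (adjusted p = 0.315) and Saa3 at 1.12 ± 0.47, neither past the test. In arrays without the word replacement the counts were 27 at 6 months and 511 at 12 months, and in arrays with it 2 at 12 months, while the positive genes of the 123 numbered 123, 111 and 113 and those past the test 21, 22 and 2. The balance of directions at 12 months turned with the setting: 177 of the 511 genes were higher, as were 11 of 30 with the word as a term in the fit, against 6 of 8 in the main fit. At 6 months that term left the count at 47.

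Tested directly as an interaction, the 40 µg effect differed between 6 months and 1 month in 0 genes (0%), with 596 at an unadjusted p under 0.05, and between 12 months and 1 month in 0 genes (0%), with 1253. Chance alone would put a share of about 0.05 of the 22180 genes under that threshold, which is more than 596 and somewhat fewer than 1253. In arrays without the word replacement the 12-month interaction called 29 genes, 25 with a smaller and 4 with a larger value at 12 months. The 1-month effect was larger than the 12-month effect by 3.03 ± 0.82 for Chil4, but not past the test (adjusted p = 0.494). For Rnase2a the 12-month effect minus the 1-month effect was -2.16 ± 0.64, for Clca1 -2.15 ± 0.90, for Slc26a4 -1.99 ± 0.51 and for Muc5ac -1.49 ± 0.39 (adjusted p from 0.494 to 0.875). These genes were named for large 1-month differences, which the interaction subtracts. Negative values can therefore come from that choice, and the values do not show a decline over time. Of the 123 genes higher at 1 month 122 had a negative value. The DM groups of the times are other animals, and the mean of Clca1 with DM was 4.90 ± 1.42 at 1 month, 4.03 ± 0.97 at 6 and 3.74 ± 0.44 at 12.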

How the data were processed

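The deposited values are log2 expression values from the authors' RMA normalization of Affymetrix arrays of whole-lung RNA, and the submitters' processing notes name RMA, oligo and limma, with versions and genome build not given in the sources used here. Array medians over features ran from 4.01 to 4.34, and no further normalization was applied. RMA can compress differences of dim features, and no detection call was used. Of 41345 features, 23521 carry 1 gene symbol in the platform annotation, 1814 several and 16010 none. By Entrez number 23328 matched RefSeq. Each gene was represented by its feature of highest mean level, which left 22180 genes. The 2 arrays of 1 mouse of another group were averaged. Differences (40 µg minus DM) and two-sided p-values came from limma 3.58.1 in R 4.3.3, fitted over all 18 groups with 120 residual degrees of freedom, with Benjamini-Hochberg adjustment over all genes at 0.05. The ± of a difference is its SE and that of a group mean its SD. Precision is limited by the number of arrays, 8 a group. The fit was tested on simulated data. The R package data.table (version 1.17.8) read the files, and matplotlib 3.10.9 drew the figures.

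The groups compared and the 46 gene lists (595 of 657 distinct genes measured) were chosen with earlier results of these data known. Genes named by rule were the 20 highest and up to 10 lowest past the test, leaving out predicted genes and receptors of smell, the 2 members of each list with the largest difference in size, a panel of 20 genes, and up to 3 in each direction in the other comparisons. Other list members and genes outside the lists were named after their values were seen. Alternatives covered the samples in the fit, normalization, centring, a minimum mean level of 5, the mean of a gene's features, a trended and robust variance, array weights, the word replacement, accession order as a spline, and leaving out single mice or the DM mice high in Acta1. Leaving out the 40 µg mice high in Dntt, and the list counts and later times under the alternatives, were added after seeing the data.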

Additional observations from a re-analysis of the deposited data

Results flagged for a closer look

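Among 74 sets of 8 mice examined, 6 held a mouse far from the other 7, where chance gives about 1 in 20. In DM mice, Clca1 was at 8.10 in replicate 3, the next mouse being at 5.36, and Rnase2a was at 4.08 in the same mouse, the next at 2.22. DM replicate 7 was lowest in Arid3b, at 5.35, with the next at 5.61. The mean of the squamous epithelium list was 7.58 in DM replicate 2 and 3.79 in the next mouse. In 40 µg mice, Rnase2a was lowest in replicate 3, at 3.54, with the next at 4.62, and Il33 was highest in replicate 4, at 8.93, with the next at 8.47. Features outside the gene comparison also gave calls: of 16010 features with no symbol 5 were higher with 40 µg and 1 lower, and of 1814 with several symbols 3 were higher.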

How the results depend on the processing

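All 127 genes kept their direction in 29 settings. Of these, 38 passed in every setting in which they were tested, 79 without each single mouse in turn, 66 in every setting apart from arrays without the word replacement, and 42 in those arrays. The count of 127 was 47 in arrays without the word and 100 to 134 when 1 mouse was left out, lowest without DM replicate 3. The 4 genes between 40 and 10 µg became 0 on the compared groups alone, 10 on the 1-month groups, 0 with quantile normalization, 1 with centring, 2 with a trended and robust variance, 13 with array weights, 2 in arrays without the word, and 0 to 5 without 1 mouse. The count between 80 and 40 µg was 2 with array weights and 0 in all fits without 1 mouse. The 6-month interaction stayed at 0 in every setting run, and without 1 mouse it ran from 0 to 0. The 12-month interaction, 0 in the main setting and without 1 mouse, was 2 on the compared groups alone, 1 with array weights, 2 with the word as a covariate, 29 in arrays without it and 1 with the spline. The cause of these moves was not tested. No paired analysis was possible because the groups hold separate animals. The labels carry no replicate numbers, and mice were numbered in order of deposition.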
